A study of Psophocarpus tetragonolobus with 12 samples.

Results

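The genes described here are 5 of the 30392 genes in the expression table of developing winged bean (Psophocarpus tetragonolobus) pods, and they encode the enzymes at the entry of phenylpropanoid metabolism. They are 2 phenylalanine ammonia lyase (PAL) genes, 1 cinnamate-4-hydroxylase (C4H) gene and 2 4-coumarate CoA ligase (4CL) genes. The 5 were picked by gene ID from the copies the study assigned to these enzymes (4 PAL, 2 C4H and 5 4CL), with their values at the 4 stages already known, so their levels and changes are a description and carry no test. The other 6 copies are given beside them.

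PAL removes the amino group of phenylalanine and gives cinnamate, C4H is the cytochrome P450 that hydroxylates cinnamate to p-coumarate, and 4CL activates p-coumarate as its CoA thioester. p-Coumaroyl-CoA is the branch point from which chalcone synthase opens the flavonoid route, which leads to the anthocyanins of purple tissues, and from which the monolignol route leads to lignin. In plants the 3 enzymes are usually encoded by small gene families, and single copies can serve different branches.

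All samples were FP15 pods (FP15 is the study's purple-podded maternal parent) from plants grown in a chamber with no treatment named, collected 15, 30, 37 and 45 days after anthesis (Day 15 to Day 45). Polyadenylated RNA of 3 different plants gave 3 libraries per stage and 12 in all, and the libraries did not keep strand. The table holds 1 value per gene and stage, in FPKM (fragments mapped to a gene, scaled to its length in kilobases and to all mapped fragments) rounded to whole numbers by the authors. The sources used here do not say how the 3 libraries of a stage became 1 value, so the spread between plants is unknown and no difference could be tested against it. The error that could be calculated is rounding, by up to 0.5 FPKM, so a listed 0 stands for anything from none to just under 0.5 FPKM. Genes that reached 1 FPKM at any stage counted as measured (22459 genes), and a call of higher or lower needed a difference of 1 or more in log2(FPKM+1), which is 2-fold. The deposited values do not give the depth behind each stage. The paper itself quotes FPKM with fractions for the gene PtNPF, summarises its libraries in a supplement and names a differential analysis. None of these was used here. Gene positions are those of the study's Ma3 assembly (Ma3 is the green-podded paternal line), and the table gives neither strand nor exons.

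The labels name pods, and the methods mention both pod and seed tissue. All 3 genes taken as pod wall markers were measured, with summed levels of 202, 285, 324 and 285 FPKM at Day 15, 30, 37 and 45. Most of that sum was the AGAMOUS match Psote02G0304400, at 148, 210, 226 and 199 FPKM. Whether this gene marks the pod wall was not tested. The FRUITFULL match Psote02G0201200 stood at 53, 74, 97 and 85 FPKM, and the FRUITFULL match Psote05G0027400 stayed at 1 FPKM. Of 51 seed storage protein genes, 35 were measured and 16 were listed at 0 throughout, and the summed level of the list was 791, 1134, 1214 and 1288 FPKM in stage order. One of them, Psote06G0099600, stood at 382, 853, 840 and 786 FPKM, and without it the list summed to 409, 281, 374 and 502 FPKM. At Day 30 against Day 15, 7 of the 35 were called higher and 11 lower, with a median change of 0. These counts are 20.0 and 31.4% of the 35, beside 9.47 and 13.7% of all measured genes. In both directions they include genes that went between a listed 0 and a listed 1 FPKM, a change within the rounding limits. The lignifying-cell markers IRX12, LAC17, CCoAOMT1 and MYB58 were all measured, with a summed level of 58, 963, 733 and 490 FPKM. In whole pods, fewer cells of a type and less RNA per cell cannot be told apart, and the part of these cell types in the results below was not tested.

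Of the 5 genes, 4 were called higher at Day 30 against Day 15, and the same 4 genes were called higher at Day 45 against Day 15, a comparison that shares its Day 15 values. The exception at both comparisons was the 4CL gene Psote01G0231200. On the log2(FPKM+1) scale the step to Day 30 was the largest for each of the 4 called genes. In FPKM it held the largest share of the change for 3 genes: PAL Psote08G0003200, C4H Psote08G0082200 and 4CL Psote06G0323800. For the other PAL gene, Psote04G0075900, the steps were 1.74, 1.14 and 0.47 on the log2(FPKM+1) scale. In FPKM they were 14, 24 and 17, and the level of this gene kept increasing up to Day 45. Among all measured genes, 9.47% were called higher and 13.7% lower at Day 30 against Day 15, and 14.3% were called higher and 19.4% lower at Day 45 against Day 15. Since the genes were chosen with these values known, nothing is read from their count against that background. The median change of the 5 genes on the log2(FPKM+1) scale was 2.51 at Day 30 against Day 15, beside a median of 0 over all measured genes.

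**Figure D1:**
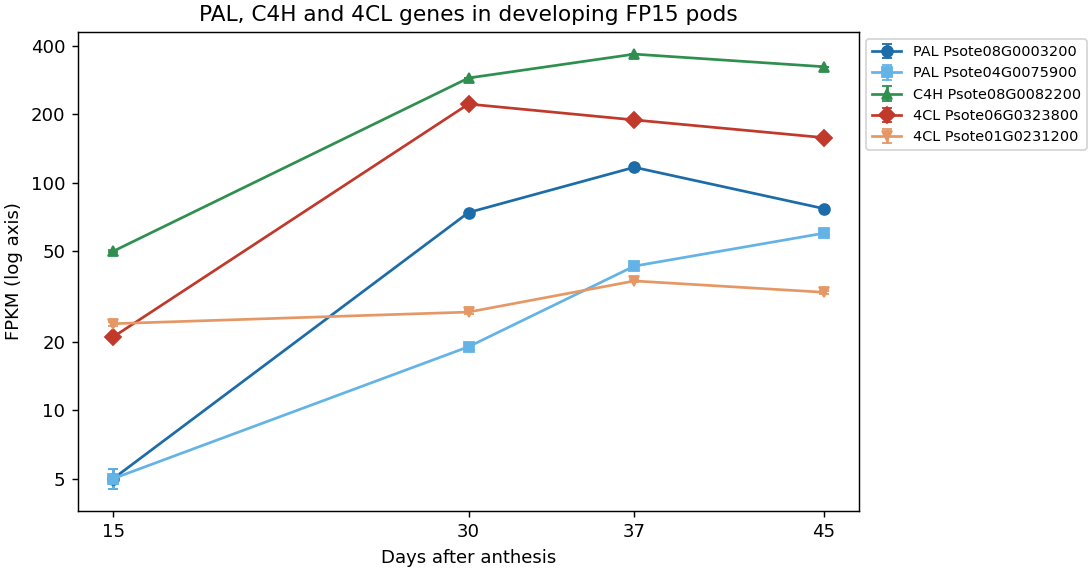
FPKM (log axis) of the 2 PAL, 1 C4H and 2 4CL genes against days after anthesis. Each point is the authors' single value for a stage and the bars are the rounding error of 0.5 FPKM. The PAL genes share a value of 5 FPKM at Day 15, and 4CL Psote01G0231200 stays between 24 and 37 FPKM.

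PAL Psote08G0003200, matched in the study to a common bean PAL gene, lies on Chr08.1 from 506470 to 509042, a span of 2573 bp. It stood at 5, 74, 117 and 77 FPKM at Day 15, 30, 37 and 45. It was low at Day 15 alone and was highest at Day 37. The value at Day 30 was 14.8 times that at Day 15, with rounding limits of 13.4 and 16.6, and 129 of the 22459 measured genes (0.574%) had a larger change at that step on the log2(FPKM+1) scale. Day 37 stood at 1.58 times Day 30, with rounding limits of 1.56 and 1.60, a change of 0.65 on the log2(FPKM+1) scale that was not called. Day 45 stood at 65.8% of the Day 37 level, close to the 63.2% at Day 30. Among measured genes it ranked 15226 at Day 15, with ranks of 1813, 1025 and 1764 at the later stages. The range was the widest of the 5, with a highest value 23.4 times the lowest.

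PAL Psote04G0075900, a match to PAL2 of Arabidopsis thaliana, lies on Chr04.1 from 14742458 to 14758202, a span of 15745 bp. It had the same rounded level as the other PAL gene at Day 15, and stood at 5, 19, 43 and 60 FPKM over the stages. Each stage was above the one before, and the highest value was the last. Day 30 stood at 3.80 times Day 15, with rounding limits of 3.36 and 4.33, and Day 37 stood at 2.26 times Day 30, with limits of 2.18 and 2.35. This was the only one of the 5 genes called higher at Day 37 against Day 30, a step at which 3.47% of measured genes were called higher and 3.69% lower. Of all measured genes, 192 (0.855%) had a larger change at that step. At Day 45 against Day 37 the change was 0.47 on the log2(FPKM+1) scale, which was not called. No member was called in either direction at that last step, where 3.53% of measured genes were called higher and 5.13% lower. At Day 30 the gene had reached 25.5% of its total increase in FPKM, against 61.6% for Psote08G0003200. The FPKM of Psote08G0003200 over that of Psote04G0075900 was 1, 3.89, 2.72 and 1.28 over the 4 stages. The 2 PAL genes thus had their highest ratio at Day 30.

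C4H Psote08G0082200, a match to the Arabidopsis C4H gene, lies on Chr08.1 from 9358027 to 9361978. It had the highest level of the 5 genes at every stage, with 50, 289, 368 and 324 FPKM. Day 30 stood at 5.78 times Day 15 with rounding limits of 5.71 and 5.85, and 75.2% of the increase to its highest value, at Day 37, was present at Day 30. The changes at the later steps were 0.35 for Day 37 against Day 30 and -0.18 for Day 45 against Day 37 on the log2(FPKM+1) scale, neither of them called. It ranked 2718 among measured genes at Day 15 and 214 at Day 37. A second gene model, Psote08G0082300 (9360857 to 9361453, 597 bp), lies wholly inside the span of this C4H gene and was looked at after its values were seen. It was listed at 53, 288, 403 and 356 FPKM, which was 99.7 to 110% of the C4H value in each stage. The libraries carry no strand, so reads of the 2 models cannot be told apart here and the C4H level is uncertain to that extent. None of the other copies of the 3 enzymes overlapped another gene model.

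4CL Psote06G0323800, matched to a common bean 4CL gene, lies on Chr06.4 from 20696689 to 20708183. It stood at 21, 222, 189 and 158 FPKM, and it was the only one of the 5 with its highest value at Day 30. Day 30 stood at 10.6 times Day 15, with rounding limits of 10.3 and 10.9, and 158 measured genes (0.704%) had a larger change. Day 37 stood at 0.851 times Day 30, and 71.2% of the Day 30 level was listed at Day 45. Neither later step was called, with changes of -0.23 at Day 37 against Day 30 and -0.26 at Day 45 against Day 37 on the log2(FPKM+1) scale.

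4CL Psote01G0231200, a match to 4CL3 and 4CL1 of Arabidopsis, lies on Chr01.4 from 4636103 to 4642219 in the expression table. Another list of the study gives this gene the position that the expression table gives Psote01G0021200 (Chr01.1, 2493053 to 2496509), a duplicate of Psote06G0323800 listed at 0 in all stages, so which locus its values belong to rests on the gene ID. In Arabidopsis, 4CL1 is linked to lignin and 4CL3 to flavonoid formation, and which of these the winged bean copy resembles more is not settled by the match. It stood at 24, 27, 37 and 33 FPKM. None of its steps was called, and its highest value was 1.54 times its lowest. Day 30 stood at 1.13 times Day 15, with rounding limits of 1.08 and 1.17, and Day 45 at 1.38 times Day 15, with limits of 1.33 and 1.43. At Day 15 its rounded level was above that of Psote06G0323800, while at Day 30 Psote06G0323800 stood at 8.22 times its level, at Day 37 at 5.11 times and at Day 45 at 4.79 times.

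**Figure D2:**
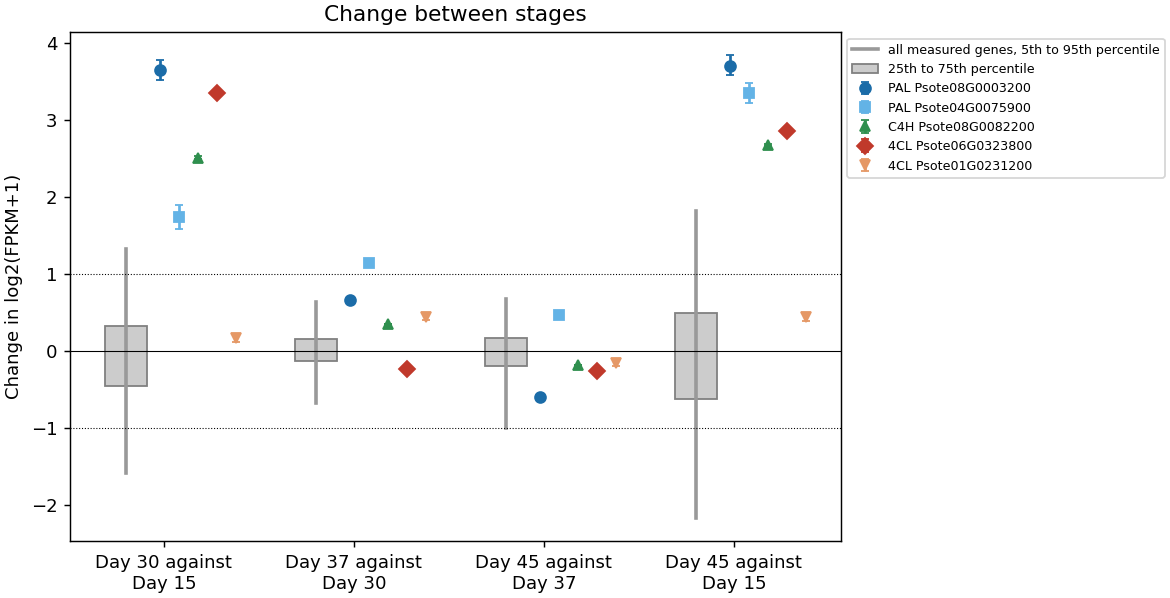
Change in log2(FPKM+1) between stages for the 5 genes (coloured points, bars for rounding limits) beside all 22459 measured genes (grey box from the 25th to the 75th percentile, grey line from the 5th to the 95th percentile, dotted lines at 2-fold). At Day 30 against Day 15 the 5 genes lie between 0.16 and 3.64, while at Day 45 against Day 37 they lie between -0.60 and 0.47.

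The order of levels among the 5 genes also differed between stages. At Day 15 it was C4H, then 4CL Psote01G0231200 and 4CL Psote06G0323800, with both PAL genes last at 5 FPKM. At Day 30 it was C4H, 4CL Psote06G0323800, PAL Psote08G0003200, 4CL Psote01G0231200 and PAL Psote04G0075900. By Day 37 PAL Psote04G0075900 had passed 4CL Psote01G0231200, and the order at Day 45 was that of Day 37. All neighbours in these orders differed by more than the rounding error except the 2 PAL genes at Day 15, and whether they differ beyond the spread between plants cannot be said. Summed over the 5 genes, the level was 105, 631, 754 and 652 FPKM in stage order.

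Over all measured genes, the stage of highest value was Day 15 for 37.3%, Day 30 for 8.95%, Day 37 for 9.84% and Day 45 for 25.1%, with 18.8% tied between stages. Of the 5 members, 3 had their highest value at Day 37, 1 at Day 30 and 1 at Day 45, and nothing is read from these counts, since the members were chosen with their values known. Rescaling the stages to the geometric mean of the reference genes PtELFa and PtTUB6 moved the highest stage of C4H and of both 4CL members to Day 45. PtTUB6 itself stood at 354, 656, 549 and 326 FPKM and PtELFa at 707, 608, 556 and 570 FPKM. Both PAL members kept their highest stage under that rescaling. Among the 2126 genes called higher at Day 30, 1638 (77.0%) were called in neither later step, as were 3 of the 4 members called at Day 30, and 141 (6.63%) were called higher again at Day 37, as was PAL Psote04G0075900.

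The other PAL copies had the higher levels. PAL Psote04G0213400, a PAL1 match, stood at 75, 342, 425 and 326 FPKM, and PAL Psote05G0268700, a PAL4 match, at 32, 151, 161 and 121 FPKM. Both were called higher at Day 30 against Day 15, at 4.56 and 4.72 times the Day 15 level, and neither was called at a later step. All 4 PAL genes were thus called higher at Day 30 against Day 15 and at Day 45 against Day 15. The other C4H copy, Psote04G0029100, had a listed 0 for Day 15 and 5, 5 and 3 FPKM afterwards. Of the other 4CL copies, Psote03G0374500 stood at 31, 46, 57 and 68 FPKM and was called higher over the whole span but at no single step, at 2.19 times Day 15 at Day 45. The 4CL copy Psote07G0204400 stood at 8, 18, 10 and 6 FPKM and was called higher at Day 30, a call that was lost when the stages were rescaled to the same sum, rescaled to both reference genes, given the least favourable rounding or held to a 4-fold threshold. The 4CL copy Psote01G0333900 was listed at 2 FPKM in every stage. In all, 8 of the 11 copies were called higher at Day 30 against Day 15, 1 at Day 37 against Day 30 and none in either direction at Day 45 against Day 37. None was called lower in any of the 4 comparisons. The 8 are 72.7% of the 11, beside 9.47% of all measured genes called higher and 13.7% lower at Day 30 against Day 15. Over all measured genes the shares were 3.47 and 3.69% at Day 37 against Day 30, and 3.53 and 5.13% at Day 45 against Day 37. The 11 include the 5 members chosen with their values known, so nothing is read from these counts.

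Set against the whole of each family, the PAL members were minor copies. Psote08G0003200 held 4.27, 12.6, 15.7 and 13.2% of the summed PAL level in stage order. Psote04G0075900 held 4.27, 3.24, 5.76 and 10.3% at the same stages. The PAL1 match Psote04G0213400 held the largest share throughout, between 55.8 and 64.1%. Copies of 1 family share sequence, and the sources used here do not say how reads that map to several copies were counted, so the split between copies is uncertain.

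C4H was nearly all 1 gene. Psote08G0082200 held 100% of the summed C4H level at Day 15, with a rounding limit of 99.0%, and 98.3 to 99.1% at the later stages. Within 4CL the leading copy was not the same at all stages. Psote06G0323800 held 24.4% of the summed 4CL level at Day 15, where Psote03G0374500 led with 36.0% and Psote01G0231200 held 27.9%. At Day 30 Psote06G0323800 held 70.5%, at Day 37 64.1% and at Day 45 59.2%. The share of Psote01G0231200 was 8.57, 12.5 and 12.4% at Day 30, 37 and 45. The rounding limits of the share of Psote06G0323800 were 23.4 and 25.4% at Day 15 and 70.0 and 71.0% at Day 30.

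**Figure D3:**
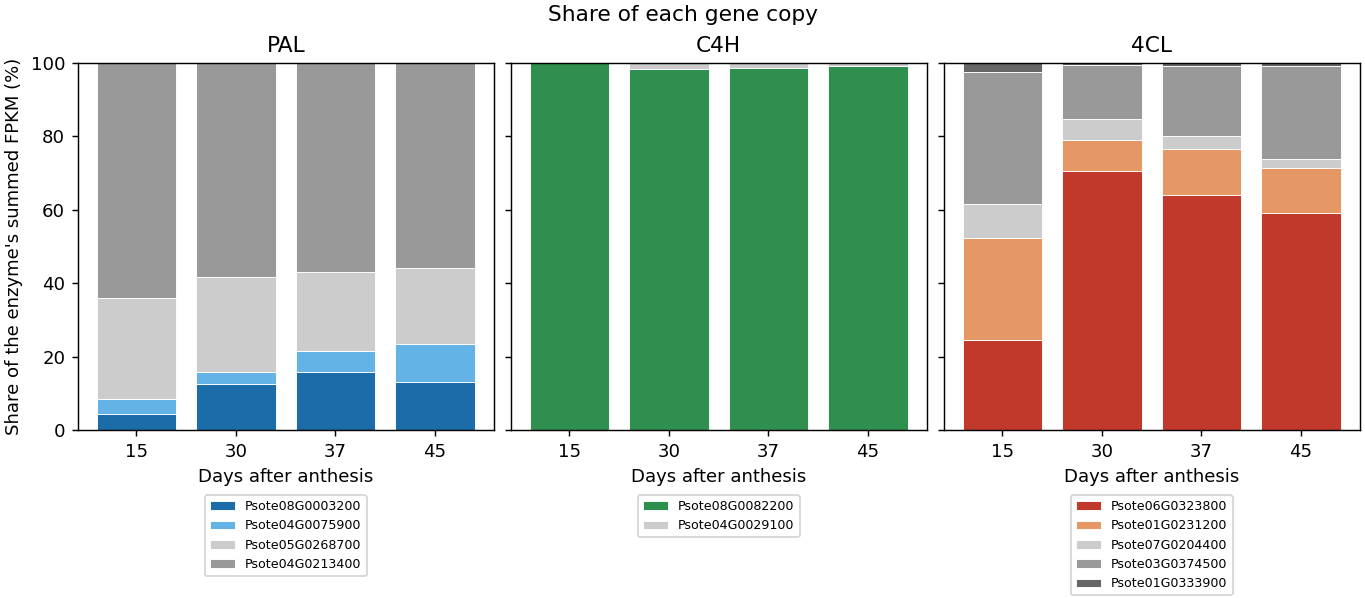
Share of each copy in the summed FPKM of its enzyme (%), by days after anthesis, with the 5 genes in colour and the other copies in grey. 4CL Psote06G0323800 (red) holds 24.4% at Day 15 and 70.5% at Day 30, while C4H Psote08G0082200 (green) holds 98.3 to 100% at each stage.

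Summed over copies, PAL stood at 117, 586, 746 and 584 FPKM, C4H at 50, 294, 373 and 327 FPKM, and 4CL at 86, 315, 295 and 267 FPKM. The sums at Day 30 were 5.01 times Day 15 for PAL, 5.88 times for C4H and 3.66 times for 4CL. The summed C4H level was 0.427 times that of PAL at Day 15 and 0.5 to 0.56 times at the later stages. The summed 4CL level was 0.735 times that of PAL at Day 15 and 0.538, 0.395 and 0.457 times at Day 30, 37 and 45.

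The genes downstream of p-coumaroyl-CoA had calls in both directions. Of 65 listed copies from chalcone synthase to the glucosyltransferases, 60 were measured, and 18 were called higher and 9 lower at Day 30 against Day 15, with a median change of 0.04 on the log2(FPKM+1) scale. These counts are 30.0 and 15.0% of the 60, beside 9.47 and 13.7% of all measured genes, so the share called lower was near that background. Calls in both directions include a copy that went between a listed 0 and a listed 1 FPKM, a change within the rounding limits. The first flavonoid steps, chalcone synthase (CHS), chalcone reductase (CHR) and chalcone isomerase (CHI), had 9 of 22 measured copies called higher and 2 lower. These counts are 40.9 and 9.09% of the 22. The CHS copy with the highest mean, Psote01G0233200, stood at 49, 213, 287 and 291 FPKM. The CHI copy Psote04G0009600 stood at 27, 732, 1096 and 885 FPKM and passed C4H at Day 30, while the nearby CHI copy Psote04G0009400 stood at 73, 41, 28 and 16 FPKM and was called lower at Day 45 against Day 15. CHS Psote01G0233000 stood at 1, 6, 11 and 11 FPKM, and its change of 2.58 on the log2(FPKM+1) scale at Day 45 against Day 15 could not be told from the 2.55 of Psote01G0233200 within the rounding limits. CHS Psote05G0176800 stood at 14, 7, 7 and 2 FPKM. The CHR copies Psote01G0412700 and Psote02G0223400, whose enzyme acts with CHS to give legume 5-deoxyflavonoids, stood at 2, 11, 23 and 15 FPKM and at 1, 9, 13 and 17 FPKM.

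The hydroxylases had 4 of 16 measured copies called higher and 3 lower at Day 30 against Day 15. These counts are 25 and 18.75% of the 16, beside 9.47 and 13.7% of all measured genes. The flavanone-3-hydroxylase (F3H) copy Psote02G0110700 stood at 143, 374, 363 and 418 FPKM, F3H Psote03G0135400 at 26, 81, 105 and 161 FPKM, and F3H Psote03G0189000 at 129, 75, 42 and 15 FPKM. The flavonoid 3'-hydroxylase copy Psote06G0058000, whose enzyme adds a hydroxyl group to the B ring, stood at 43, 215, 216 and 204 FPKM, while Psote06G0270200 stood at 3 FPKM at Day 15 and was listed at 0 afterwards. The flavonoid 3'5'-hydroxylase copy Psote03G0208000 stood at 10, 8, 6 and 6 FPKM and was not called.

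At the late steps, dihydroflavonol 4-reductase (DFR), anthocyanidin synthase (ANS), anthocyanidin reductase (ANR), leucoanthocyanidin reductase (LAR) and flavonol synthase (FLS), 1 of 12 measured copies was called higher and 2 lower at Day 30 against Day 15, shares near those of all measured genes. The DFR copy Psote03G0413000 stood at 56, 190, 181 and 143 FPKM, DFR Psote01G0173100 at 11, 19, 33 and 42 FPKM, and DFR Psote08G0200700 at 164, 94, 60 and 33 FPKM. The ANS copy Psote01G0255900, whose enzyme gives the coloured anthocyanidin, stood at 266, 226, 110 and 53 FPKM and was called lower at both steps after Day 30, calls that were both lost with the stages rescaled to both reference genes or at 4-fold. The call at Day 37 against Day 30 was also lost with PtELFa alone (-0.90) and that at Day 45 against Day 37 with the same sum (-0.96). The ANS copy Psote07G0201100 stood at 25, 30, 32 and 40 FPKM and was not called in any comparison. ANS Psote06G0112300 stood at 1, 2, 2 and 3 FPKM, ANR Psote03G0143100 at 4, 1, 1 and 0 FPKM, LAR Psote01G0405800 at 1, 2, 2 and 1 FPKM and FLS Psote05G0091600 at 3, 4, 1 and 1 FPKM. Among 10 glucosyltransferases (GT), 4 were called higher and 2 lower at Day 30 against Day 15. These counts are 40 and 20% of the 10, beside 9.47 and 13.7% of all measured genes. GT Psote03G0355100 had a listed 0 for Day 15 and 31, 71 and 152 FPKM afterwards, and GT Psote09G0032600 stood at 15, 1, 1 and 0 FPKM.

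**Figure D4:**
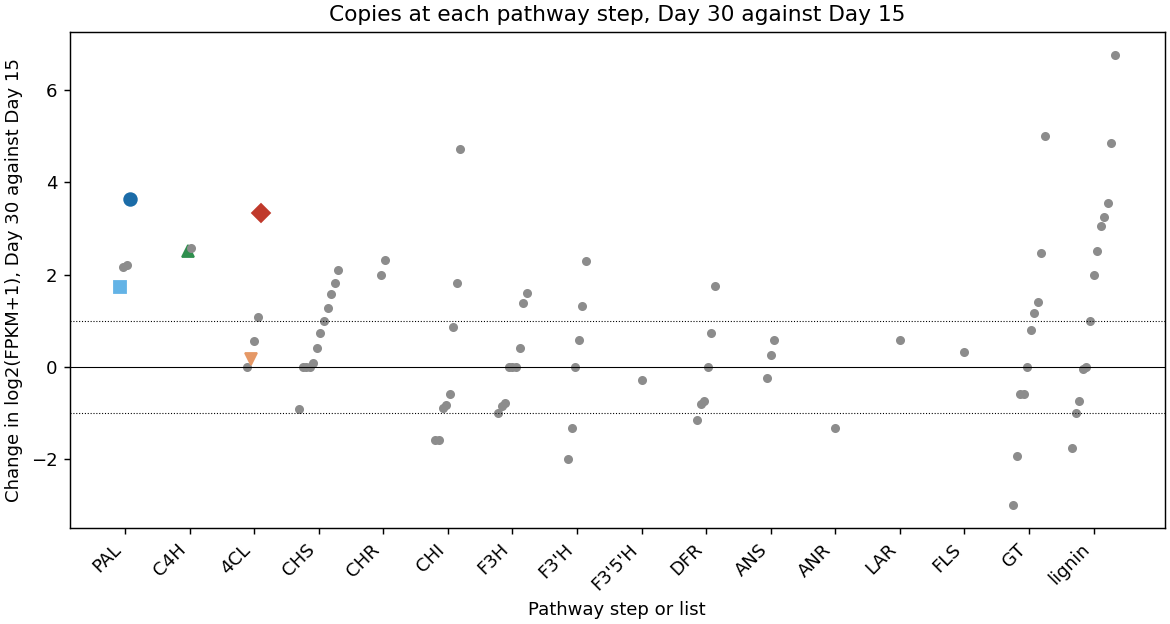
Change in log2(FPKM+1) at Day 30 against Day 15 for every measured copy at each pathway step and in the lignin-related list (1 point per gene, dotted lines at 2-fold). The coloured symbols are the 5 genes, with the colours and shapes of the plot of FPKM by stage. All PAL and C4H copies lie above 1, while the 65 later copies, of which 60 were measured, lie between -3 and 5.

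The lignin-related list held 14 genes, of which 13 were measured. At Day 30 against Day 15, 8 were called higher and 2 lower, with a median change of 2 on the log2(FPKM+1) scale beside 0 over all measured genes. These counts are 61.5 and 15.4% of the 13, beside 9.47 and 13.7% of all measured genes. The lower calls include a gene that went from a listed 1 to a listed 0 FPKM, a change within the rounding limits. The list had been put together with these stage values known. CCoAOMT1 Psote03G0183300, a methyltransferase of the monolignol route, stood at 54, 642, 530 and 396 FPKM. Among the OMT1 matches (caffeic acid O-methyltransferase in Arabidopsis), Psote02G0121400 stood at 12, 107, 84 and 60 FPKM and Psote02G0121600 at 13, 132, 79 and 41 FPKM. Psote03G0247500 stood at 50, 14, 4 and 0 FPKM, Psote05G0352300 at 96, 57, 64 and 48 FPKM, and Psote01G0435000 at 1, 3, 7 and 20 FPKM. The laccase genes, whose enzymes oxidise monolignols in the wall, were listed at 1, 216, 169 and 74 FPKM (IRX12, Psote05G0095400) and at 2, 86, 11 and 3 FPKM (LAC17, Psote05G0104400). The beta-glucosidase match BGLU46 (Psote01G0130800) stood at 2, 16, 31 and 97 FPKM. As with 4CL Psote06G0323800, the highest stage was Day 30 for CCoAOMT1, both laccases and the OMT1 matches Psote02G0121400 and Psote02G0121600.

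Of 13 listed MYB genes, 2 were called higher and 5 lower at Day 30 against Day 15. These counts are 15.4 and 38.5% of the 13, beside 9.47 and 13.7% of all measured genes. Among the lower calls, Psote03G0356200, Psote04G0331900 and Psote05G0305100 went from a listed 1 to a listed 0 FPKM, a change within the rounding limits. MYB58 Psote03G0302300, known in Arabidopsis as an activator of lignin genes, stood at 1, 19, 23 and 17 FPKM. MYB111 Psote06G0059600, an activator of early flavonoid genes in Arabidopsis, stood at 5, 121, 169 and 181 FPKM. The 4 matches to MYB4, in Arabidopsis a repressor of the C4H gene, stood at 13, 12, 12 and 16 FPKM (Psote01G0037300), at 9, 15, 14 and 14 FPKM (Psote02G0151800), at 23, 32, 24 and 32 FPKM (Psote08G0070100) and at 7, 3, 2 and 1 FPKM (Psote03G0181800). The last of these was called lower at Day 30 against Day 15, a call lost under quantile normalization, PtELFa rescaling, the least favourable rounding and the 4-fold threshold, and the other 3 were not called in any comparison. The MYB15 matches that reached 5 FPKM stood at 13, 1, 1 and 0 FPKM (Psote01G0129700) and at 3, 2, 3 and 5 FPKM (Psote04G0306800).

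Likeness of profile was measured as the largest difference at any stage between 2 profiles of log2(FPKM+1), each centred on its own mean over the 4 stages, so a smaller value means a closer profile. It was computed against 220 genes with a name in the study's tables and 17487 genes in all, each reaching 5 FPKM. The named genes came from the study's anthocyanin pathway genes, its candidate genes for seed protein and the lists used here. Which named genes are closest therefore depends on that pool. With 4 points per profile, it is a description only. No rounding limits were calculated for it, and the closest genes given below are the closest among the named genes. For 4CL Psote06G0323800 the closest named gene was CCoAOMT1 at 0.11, which was also the closest of all 17487 genes. The next named genes were MYB58 at 0.28 and OMT1 Psote02G0121400 at 0.33, with 15 and 25 of all genes as close or closer. PAL Psote08G0003200 was closest to MYB58 at 0.39, to NAC2 Psote03G0334800 at 0.44 and to CCoAOMT1 at 0.53. Over all genes, 15, 22 and 40 were as close or closer, each count including the named gene. MYB58 was listed at 1 FPKM at Day 15, and its change at Day 30 had rounding limits of 2.96 and 3.77. Its distances, and its place in both orders, are thus uncertain. NAC2 stood at 18, 162, 227 and 275 FPKM. The number of genes within 0.5 was 33 for PAL Psote08G0003200 and 72 for 4CL Psote06G0323800.

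C4H Psote08G0082200 was closest to the glucosyltransferase Psote06G0097200 (UFGT) at 0.17, to LBD41 Psote05G0005800 at 0.17 and to CHS Psote01G0233200 at 0.22, with 222 genes within 0.5. The first of these stood at only 1, 10, 11 and 11 FPKM, and LBD41 at 29, 188, 196 and 207 FPKM. Over all genes, 16, 19 and 34 were as close or closer to C4H, each count including the named gene. PAL Psote04G0075900 was closest to ERF13 Psote07G0010300 at 0.15, which stood at 3, 10, 25 and 36 FPKM, then to the aquaporin match NIP1;2 Psote03G0122500 at 0.24 and to GAE6 Psote03G0113800 at 0.32, with 177 genes within 0.5. For this PAL gene the counts of genes as close or closer were 6, 21 and 48. 4CL Psote01G0231200 was closest to ERF1A Psote01G0265100 at 0.09, to the glucosyltransferase UGT75C1 Psote07G0242800 at 0.10 and to F3H Psote01G0051600 at 0.13, but 9160 genes (52.4%) lay within 0.5 of its nearly level profile. Among the 5 genes themselves, the closest pair was C4H and 4CL Psote06G0323800 at 0.52, and the most distant pair was PAL Psote08G0003200 and 4CL Psote01G0231200 at 2.61.

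Counts of calls among the genes next to the members on the assembly are set beside the 9.47% called higher and 13.7% called lower among all measured genes. Among the 5 gene models on each side, 1 of 10 measured neighbours of PAL Psote08G0003200 was called higher at Day 30 against Day 15 and 1 lower, and for PAL Psote04G0075900 these counts were 1 and 1 of 6. The neighbour of PAL Psote08G0003200 called higher went from a listed 0 to a listed 1 FPKM, a change within the rounding limits. For 4CL Psote01G0231200 none of 9 measured neighbours was called higher and 1 was called lower. For 4CL Psote06G0323800 only 2 of 10 neighbours were measured and 1 was called higher. For C4H 3 of 8 measured neighbours were called higher, 1 of them the model Psote08G0082300 inside it. The others, Psote08G0081800 and Psote08G0081900, overlap each other, so these calls are not separate. Psote08G0081800 stood at only 1 FPKM at Day 15 and 4 FPKM at Day 30.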

How the data were processed

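Pods of FP15 were sampled at 4 stages with 3 libraries each, grouped by the labels. The submitters' processing notes name fastp, HISAT2 2.0.5 and featureCounts 1.5.0-p3. The authors deposited 1 value per gene and stage, FPKM rounded to whole numbers, which was handled as a score since it holds no fractions. There were 0 columns of other samples. The sources used here do not say how libraries were combined.

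Changes were taken on log2(FPKM+1) for genes at 1 FPKM or more in at least 1 stage, and called at 2-fold. Fold changes of low genes are understated on that scale. With 1 value per stage no SD, n or p could be given and no test was run, and rounding limits (0.5 FPKM) stand as the only error. The calling step was tested on simulated data.

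The genes, the pathway lists and the markers were chosen with earlier results of these data known. Gene names other than the enzyme names are Arabidopsis or legume matches in the study's tables. Named genes are the 5 members, the other PAL, C4H and 4CL copies, the reference genes, per later step the copy with the highest mean and those with the largest rise and fall in log2(FPKM+1) at Day 45 against Day 15, lignin-related and MYB genes reaching 5 FPKM, and the 3 named genes closest in profile to each member. Psote08G0082300 and the cell type markers were named beside these. So were ANS Psote07G0201100, the MYB genes that went from 1 to 0 FPKM at Day 30 and the called neighbours of C4H. Of the lignin-related genes reaching 5 FPKM, 1 is not reported here. Alternatives covered the pseudocount, the filter, 5 ways of setting the stages to one scale, a 4-fold threshold and the least favourable rounding. Sequences of these genes were not used here. Python 3.11.15, numpy 2.4.6 and pandas 2.3.3 were used.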

Additional observations from a re-analysis of the deposited data

How the results depend on the processing

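Of the 11 settings, 4 (both pseudocounts and both filters) could not change a member's call, given whole-number values and members that all reach 5 FPKM. Under the other 7, 138 of 140 member changes kept their call. That count is partly fixed in advance, since the 4-fold threshold and the least favourable rounding can only remove calls. Member changes that were not called to begin with could not differ under them. The exceptions were PAL Psote04G0075900 at Day 30 against Day 15 and at Day 37 against Day 30 under the 4-fold threshold, which left 3 members called higher at Day 30 against Day 15 and 0 at Day 37 against Day 30. Adding the duplicate Psote01G0021200 to 4CL left the copy shares as they were, since it was listed at 0. Rescaling to PtELFa alone was chosen after seeing the data.

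The counts over all genes moved more. With a filter of 5 FPKM, 1783 genes were called lower at Day 30 against Day 15, 282 higher and 315 lower at Day 37 against Day 30, 271 higher and 624 lower at Day 45 against Day 37, and 2729 lower at Day 45 against Day 15. With stages at the same sum, 1362 were higher at Day 30 against Day 15, 214 higher and 281 lower at Day 37 against Day 30, and 364 lower at Day 45 against Day 37. With the same upper quartile, 212 were higher at Day 37 against Day 30, and 240 higher and 385 lower at Day 45 against Day 37. With both reference genes, 1115 were higher at Day 30 against Day 15, 383 higher and 120 lower at Day 37 against Day 30, and 258 lower at Day 45 against Day 37. With PtELFa alone, 1808 were lower at Day 30 against Day 15, 142 lower at Day 37 against Day 30 and 2658 lower at Day 45 against Day 15. At 4-fold, 530 were higher and 688 lower at Day 30 against Day 15, 36 higher and 11 lower at Day 37 against Day 30, 47 higher and 51 lower at Day 45 against Day 37, and 1020 higher and 1449 lower at Day 45 against Day 15. With the least favourable rounding, 1269 were higher and 1554 lower at Day 30 against Day 15, 150 higher and 97 lower at Day 37 against Day 30, 175 higher and 249 lower at Day 45 against Day 37, and 2093 higher and 2567 lower at Day 45 against Day 15. The 4-fold threshold and the rounding limits narrow the calls by construction, the filter also tests fewer genes, and for the rescalings the cause was not tested.

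Of the genes called at each step, the share called higher was 40.8% at Day 30 against Day 15, 48.5% at Day 37 against Day 30, 40.7% at Day 45 against Day 37 and 42.4% at Day 45 against Day 15. It became 29.7, 22.8 and 53.6% at Day 30 against Day 15 with the same sum, both reference genes and PtELFa alone. At Day 37 against Day 30 it became 20.3% with the same upper quartile, 76.1% with both reference genes and 85.1% with PtELFa alone. At Day 45 against Day 37 it became 69.0% with the same sum and 81.4% with both reference genes, and at Day 45 against Day 15 60.7% with PtELFa alone. Both reference genes shifted the median of all genes by -0.29, 0.15, 0.29 and 0.15 on the log2(FPKM+1) scale over these 4 comparisons, PtELFa alone by 0.14, 0.10 and 0.23 at the first, second and last, and the same sum by -0.11 at the first.

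No paired analysis was possible because the table holds 1 value per stage and no value per library. For the same reason, leaving out a replicate was not run. The deposited table gives neither the depth behind a stage value nor the spread between plants, and both limit every value.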
